A study of Mus musculus with 8 samples.

Results

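The genes described here make, conjugate and carry bile acids in the liver of newborn mice with and without glycerol kinase. They are 10 genes, chosen by symbol: the synthesis enzymes Cyp7a1, Cyp8b1, Cyp27a1, Cyp7b1 and Akr1d1, the conjugation enzymes Slc27a5 and Baat, and the transporters Slc10a1, Abcb11 and Slco1b2. They account for 21 of the 45101 probe sets of the array and for 10 of the 18193 genes named on it. Of these, 15 probe sets, for 9 of the 10 genes, had a signal of 200 or more on 4 or more of the 8 arrays and were tested, and Cyp7b1 had none. RNA came from the livers of 4 glycerol kinase knockout pups and of 4 wild-type littermates, all inbred C57BL/6J, labelled male and taken on day of life 3. Each liver was prepared by itself and measured on 1 Affymetrix mouse GeneChip, so a group holds 4 animals and none was pooled. By the series' own account that day was chosen because the knockout pups are then hypoglycemic and acidotic. The labels do not limit the knockout to the liver, so the loss of the enzyme in hepatocytes and the illness of the pup cannot be told apart.

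Bile acids are made from cholesterol in hepatocytes. The classic route starts with Cyp7a1, the rate-limiting enzyme, and the alternative route starts with the mitochondrial side-chain hydroxylase Cyp27a1 and continues with Cyp7b1, while Cyp8b1 adds the hydroxyl group that makes cholic acid and so sets its share of the pool. The finished acids are joined to an amino acid, secreted into bile, taken up again in the gut and returned to the liver. They limit their own synthesis through the nuclear receptor Nr1h4 (FXR) and the repressor Nr0b2 (SHP).

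All 8 arrays had been scaled to the same mean, and their median signals ran from 147 to 174.6. In both groups, replicates 1 and 2 (the first array set) stood apart from replicates 3 and 4 (the second array set). A hybridisation control, BioB, read 141 to 167 on the former and 258 to 338 on the latter, though 5 of the 18 spiked-in probe sets parted the arrays in this way. The labels name no batch, and each array set holds 2 arrays of each group, so the knockout difference is also given within each. Knockout 1 had the highest 3'/5' signal ratio of pyruvate carboxylase, a measure of RNA integrity, at 7.03, followed by knockout 2 at 4.93 and by the other 6 arrays at 2.06 to 3.46. The other ratios of this kind ordered the arrays differently. That of actin was 1.74 in knockout 1 and 1.21 to 1.32 elsewhere, and that of the transferrin receptor was 6.50 to 6.72 on all 4 arrays of the first array set and 4.21 to 4.83 on the second. Wild type 4, although labelled male, read 10506 for Xist, an RNA of females, against 196 to 396 on the other arrays, and 1.3 for the Y-linked Eif2s3y against 685 to 1164. Results are therefore also given without it. The signal of the glycerol kinase gene itself was not analysed here. The liver label was checked against hepatocyte markers. All 8 of those on the array reached the minimum, with a summed signal of 140708 to 180741 in wild type and 156270 to 198017 in knockout. Of 5 bile duct markers, Krt7, Sox9 and Cftr were below it. The other 2, Krt19 and Epcam, reached it, with a summed signal of 261 to 1524 in wild type and 247 to 1120 in knockout.

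No member passed the test of knockout against wild type, in which limma fits all 20395 tested probe sets and a call needs a Benjamini-Hochberg adjusted p under 0.05. The members' adjusted p ran from 0.107 to 0.995 over the 9 genes, each by its brightest probe set, and over all tested probe sets 0.299% were called. Among the synthesis enzymes the measured differences went both ways. Cyp27a1 averaged 3.24 times its wild-type signal and Cyp8b1 0.493 times, while Cyp7a1 was at 1.01 times. The conjugation enzyme Slc27a5 averaged 8152 in knockout against 5419.6 in wild type, and the 3 transporters lay between 0.934 and 1.23 times. At an unadjusted p under 0.05 limma separated 3 of the 9 genes, Cyp27a1 and Slc27a5 higher and Cyp8b1 lower, where 14.4% of all tested probe sets did so (7.12% higher and 7.32% lower). The groups did not overlap for 2 of the 9, Cyp27a1 and Slc27a5, both with the knockouts above. Over all tested probe sets they did not overlap for 9.32%, of which 4.47% had the knockouts above and 4.85% below. The median log2 difference was -0.06 over the 4 tested synthesis enzymes, 0.41 over the 2 conjugation enzymes and 0.19 over the 3 transporters, beside -0.02 over all 10878 named genes tested. In whole liver, fewer cells of a type and less RNA per cell cannot be told apart.

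**Figure D1:**
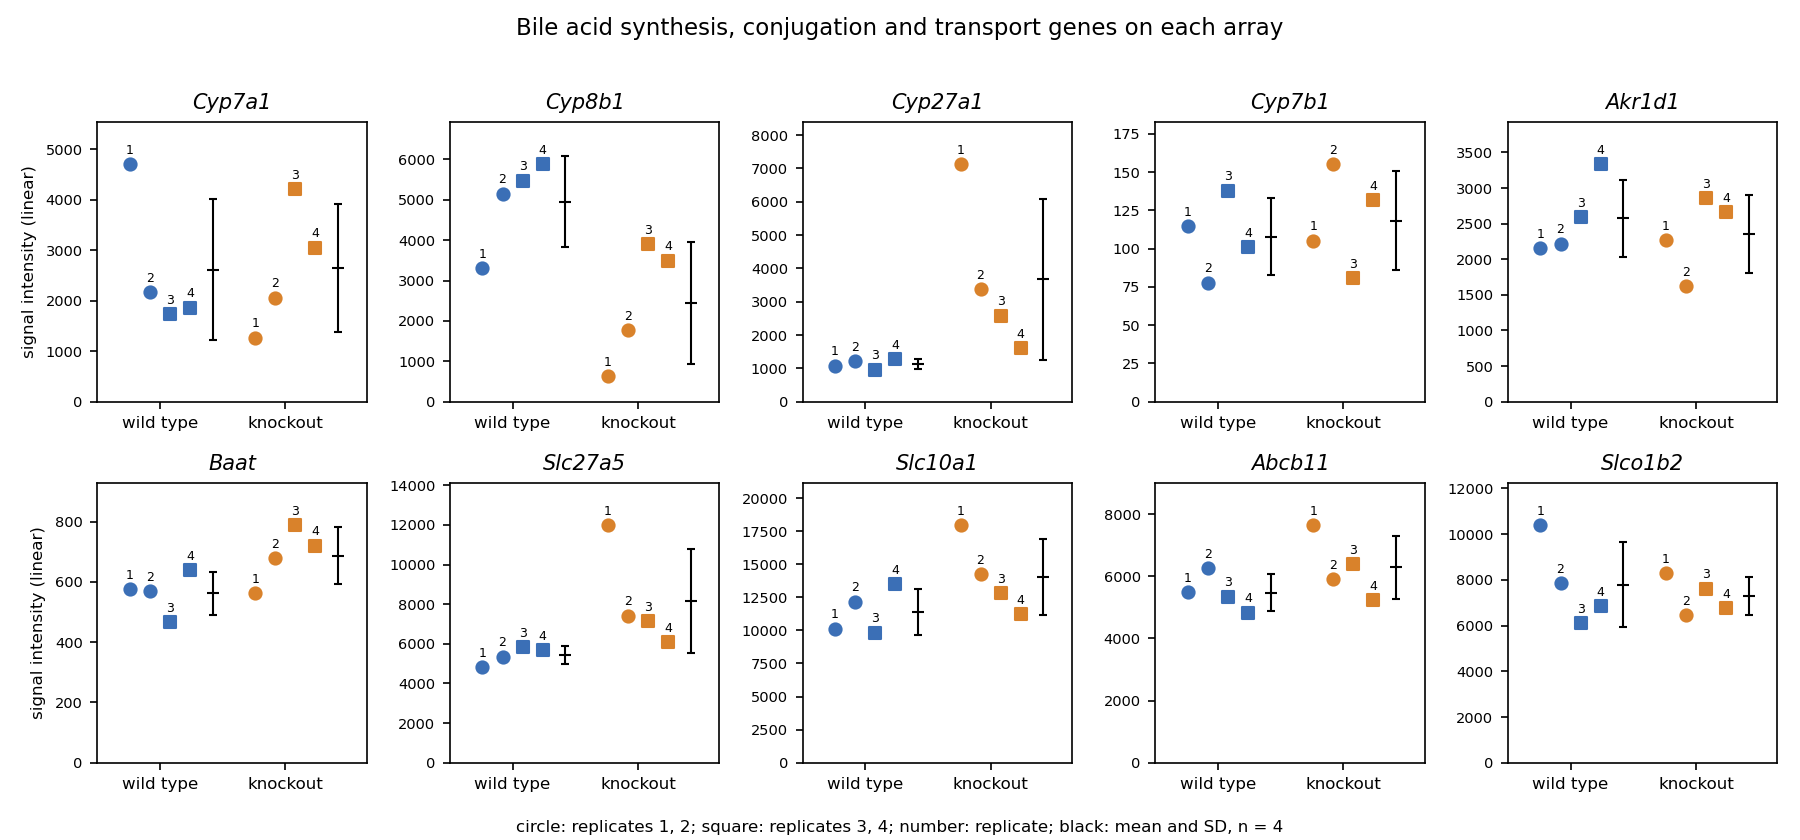
Signal intensity (linear scale, y axis) of the 10 genes on each of 4 wild-type and 4 knockout arrays, with circles for replicates 1 and 2, squares for replicates 3 and 4, and the mean and SD in black. Every knockout array lies above every wild-type array for Cyp27a1 and Slc27a5, and in Cyp7a1 the knockout circles lie below and the knockout squares above their wild-type counterparts.

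Cyp27a1 catalyses the first step of the alternative route and hydroxylates the side chain in both routes. Its signals were 1081, 1216, 953 and 1273 in wild type 1 to 4 (1131 ± 144, SD, n = 4) and 7118, 3371, 2583 and 1596 in knockout 1 to 4 (3667 ± 2413, SD, n = 4). All 4 knockout arrays were above all 4 wild types, and knockout 1 was by far the highest. On the log2(signal + 16) scale, used for every log2 value here, the difference was 1.48 ± 0.36 (limma, SE, 95% interval 0.68 to 2.28, adjusted p = 0.107). It was 2.08 ± 0.34 in replicates 1 and 2 and 0.87 ± 0.25 in replicates 3 and 4. Without knockout 1 it was 1.09 (adjusted p = 0.119), and without wild type 4 it was 1.54 (adjusted p = 0.179). Leaving out knockout 4, the lowest of the knockouts, brought Cyp27a1 past the threshold at 1.80 (limma, adjusted p = 0.028), in a fit that called 1.64% of all probe sets. The knockout arrays with the highest pyruvate carboxylase ratios also had the highest Cyp27a1 signals, and with that ratio, 1 of the 3, in the fit the difference was 1.13 ± 0.24 (adjusted p = 0.0786); the ratio's part in the result was not tested further. The second Cyp27a1 probe set read 4 to 16.9 on the 8 arrays and was not tested.

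Cyp8b1 directs synthesis towards cholic acid. It read 3312, 5153, 5469.5 and 5878 in wild type 1 to 4 (4953 ± 1134, SD, n = 4) and 628, 1764, 3894 and 3488 in knockout 1 to 4 (2443 ± 1523, SD, n = 4). The groups overlapped because wild type 1 lay below knockout 3 and knockout 4. Within each array set both knockouts were below both wild types, and how many of all probe sets do the same was not counted. The log2 difference was -1.29 ± 0.48 (limma, SE, 95% interval -2.35 to -0.22, adjusted p = 0.264). It was -1.95 ± 0.45 in replicates 1 and 2 and -0.62 ± 0.12 in replicates 3 and 4. Knockout 1 weighed most on it: without that array the difference was -0.74 (adjusted p = 0.346), and with the pyruvate carboxylase ratio in the fit it was also -0.74 ± 0.18 (adjusted p = 0.098). Without wild type 4 it was -1.19 (adjusted p = 0.397).

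Upstream sequences are printed for these 2 enzymes, whose mean signals differed most between the groups, in opposite directions, and for the transporter Abcb11, a textbook target of FXR. RefSeq windows on GRCm38.p6 were matched for 6 of the 10 genes. Each sequence is the 250 bases before the annotated start, 5' to 3' on the gene's strand, with capitals for motifs found in it. The motifs searched on both strands were AGGTCA (the core site of nuclear receptors), CAAGGTC (bound by LRH-1), CAAAGTC (bound by HNF4A) and TATAAA, and an AGGTCA may overlap a CAAGGTC.
Cyp8b1, chr9:121916306-121916555, minus strand: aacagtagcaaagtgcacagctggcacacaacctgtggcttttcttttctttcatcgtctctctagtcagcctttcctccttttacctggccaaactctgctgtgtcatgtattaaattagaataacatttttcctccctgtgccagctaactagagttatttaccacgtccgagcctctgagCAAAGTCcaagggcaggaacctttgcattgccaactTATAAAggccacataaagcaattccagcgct
Cyp27a1, chr1:74713285-74713534, plus strand: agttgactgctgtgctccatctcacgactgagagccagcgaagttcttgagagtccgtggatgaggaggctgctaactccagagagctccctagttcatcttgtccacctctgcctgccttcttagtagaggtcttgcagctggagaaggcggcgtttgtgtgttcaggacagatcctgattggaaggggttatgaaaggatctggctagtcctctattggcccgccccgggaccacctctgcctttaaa
Abcb11, chr2:69342617-69342866, minus strand: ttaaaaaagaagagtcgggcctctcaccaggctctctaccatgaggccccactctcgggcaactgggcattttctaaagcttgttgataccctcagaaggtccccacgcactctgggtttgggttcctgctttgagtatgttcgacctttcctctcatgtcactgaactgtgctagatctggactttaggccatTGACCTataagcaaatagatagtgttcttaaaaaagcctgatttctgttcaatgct
The Cyp8b1 window holds CAAAGTC from 67 to 61 bases and TATAAA from 31 to 26 bases before the start. Of all 32851 mouse windows, 3.84% hold the first motif and 12.4% the second. The Cyp27a1 window holds none of these 4 motifs. The Abcb11 window holds AGGTCA on the opposite strand, 56 to 51 bases before the start, as 14.0% of all windows hold it on either strand. A match is a description of these letters and not evidence of binding.

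Cyp7a1, the rate-limiting enzyme, had nearly equal means in both groups and opposite differences in the 2 array sets. Its brightest probe set read 4700.4, 2168, 1729.7 and 1861 in wild type 1 to 4 (2615 ± 1403, SD, n = 4) and 1268, 2062, 4212 and 3051 in knockout 1 to 4 (2648 ± 1272, SD, n = 4). Knockout 1 and 2 lay below wild type 1 and 2, and knockout 3 and 4 above wild type 3 and 4. The log2 difference over all arrays was 0.01 ± 0.39 (limma, SE, 95% interval -0.85 to 0.87, adjusted p = 0.995). It was 0.33 without wild type 1, the highest array, and -0.11 without wild type 4. The difference was -0.97 ± 0.39 in replicates 1 and 2 and 0.99 ± 0.17 in replicates 3 and 4. The second Cyp7a1 probe set gave -0.99 ± 0.36 and 1.27 ± 0.17 in the same array sets, from signals of 1367, 982, 743 and 834.5 in wild type and 398, 828, 2212 and 1674 in knockout. The difference between the array sets was 1.97 ± 0.51 and 2.26 ± 0.46 for the 2 probe sets, and neither passed limma's test over all probe sets (adjusted p = 0.484 for both).

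Akr1d1, which reduces the steroid ring of bile acid precursors, read 2156, 2219, 2588 and 3333 in wild type (2574 ± 540, SD, n = 4) and 2267, 1622, 2862 and 2663 in knockout (2353 ± 547, SD, n = 4). The groups overlapped along most of their range. The log2 difference was -0.14 ± 0.20 (limma, SE, 95% interval -0.59 to 0.31, adjusted p = 0.801), and that of its other probe set was 0.02 ± 0.21. It was -0.19 and -0.09 in the 2 array sets and -0.0079 without wild type 4. Cyp7b1 hydroxylates the sterol ring after Cyp27a1 on the alternative route. Its 3 probe sets read between 8.5 and 155 on every array, below the minimum for testing. The brightest averaged 108 ± 25.1 in wild type and 118 ± 32.3 in knockout (SD, n = 4 each), and a difference was not tested at this signal.

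Slc27a5 activates bile acids by joining them to coenzyme A, mainly those that return from the gut. It read 4804, 5348, 5842 and 5684 in wild type 1 to 4 (5420 ± 459, SD, n = 4) and 11971, 7412.5, 7132 and 6094 in knockout 1 to 4 (8152 ± 2608, SD, n = 4). Every knockout array was above every wild type, with knockout 1 well above the rest. The log2 difference was 0.54 ± 0.19 (limma, SE, 95% interval 0.13 to 0.96, adjusted p = 0.23). It was 0.89 ± 0.26 in replicates 1 and 2, 0.19 ± 0.12 in replicates 3 and 4, and 0.34 without knockout 1. Without wild type 4 it was 0.57, and with the pyruvate carboxylase ratio in the fit 0.41 ± 0.16. Baat then transfers the activated acid to taurine or glycine. It read 575, 568, 467 and 639.6 in wild type (562 ± 71.3, SD, n = 4) and 562.5, 678, 787 and 720.5 in knockout (687.0 ± 94.5, SD, n = 4). Knockout 1 fell within the wild-type range and the other 3 knockouts lay above it. The difference was 0.28 ± 0.15 (limma, SE, 95% interval -0.06 to 0.62, adjusted p = 0.44), and 0.08 ± 0.19 by the other Baat probe set. By the brightest it was 0.11 and 0.45 in the 2 array sets and 0.34 without wild type 4.

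The 3 transporters had log2 differences of -0.08 to 0.29, each within an interval that includes 0. Slc10a1 (NTCP), which takes conjugated bile acids up from the blood, read 10127, 12171, 9839.8 and 13509 in wild type (11412 ± 1741, SD, n = 4) and 17933, 14239, 12792 and 11246 in knockout (14052 ± 2861, SD, n = 4). The groups overlapped, and knockout 1 was again the highest array. Its log2 difference was 0.29 ± 0.16 (limma, SE, 95% interval -0.06 to 0.64, adjusted p = 0.434), with 0.52 ± 0.21 in replicates 1 and 2 and 0.06 ± 0.16 in replicates 3 and 4. Without knockout 1 it was 0.17 and without wild type 4 it was 0.38. Its second probe set gave 0.27 ± 0.17.

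Abcb11 (BSEP), the pump that exports bile acids into bile, read 5487, 6255, 5346 and 4821 in wild type (5477 ± 592, SD, n = 4) and 7635, 5913, 6392 and 5233 in knockout (6293 ± 1013, SD, n = 4). Wild type 1, 2 and 3 lay within the knockout range and wild type 4 below it, and the difference of 0.19 ± 0.14 (limma, SE, 95% interval -0.12 to 0.50, adjusted p = 0.573) was 0.20 and 0.19 in the 2 array sets. It was 0.095 without knockout 1, 0.12 ± 0.13 with the pyruvate carboxylase ratio in the fit and 0.13 without wild type 4. Slco1b2, an organic anion carrier that takes up unconjugated bile acids, read 10382, 7854, 6093 and 6839 in wild type (7792 ± 1871, SD, n = 4) and 8298, 6458, 7616 and 6754 in knockout (7281 ± 837, SD, n = 4). The knockout arrays all fell inside the wild-type range, and the difference was -0.08 ± 0.17 (limma, SE, 95% interval -0.44 to 0.29, adjusted p = 0.876). It was -0.30 and 0.15 in the 2 array sets, and -0.13 without wild type 4. Of its other 4 probe sets, 2 were below the minimum and the 2 tested gave -0.26 ± 0.27 and 0.04 ± 0.17. The first of these read 2439.7, 1524, 1373 and 1687 in wild type and 1015, 1038, 2059 and 1931 in knockout. As in Cyp7a1, the knockouts lay below their wild types in the first array set and above them in the second, with a difference between the sets of 1.29 ± 0.33 (limma, adjusted p = 0.484).

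**Figure D2:**
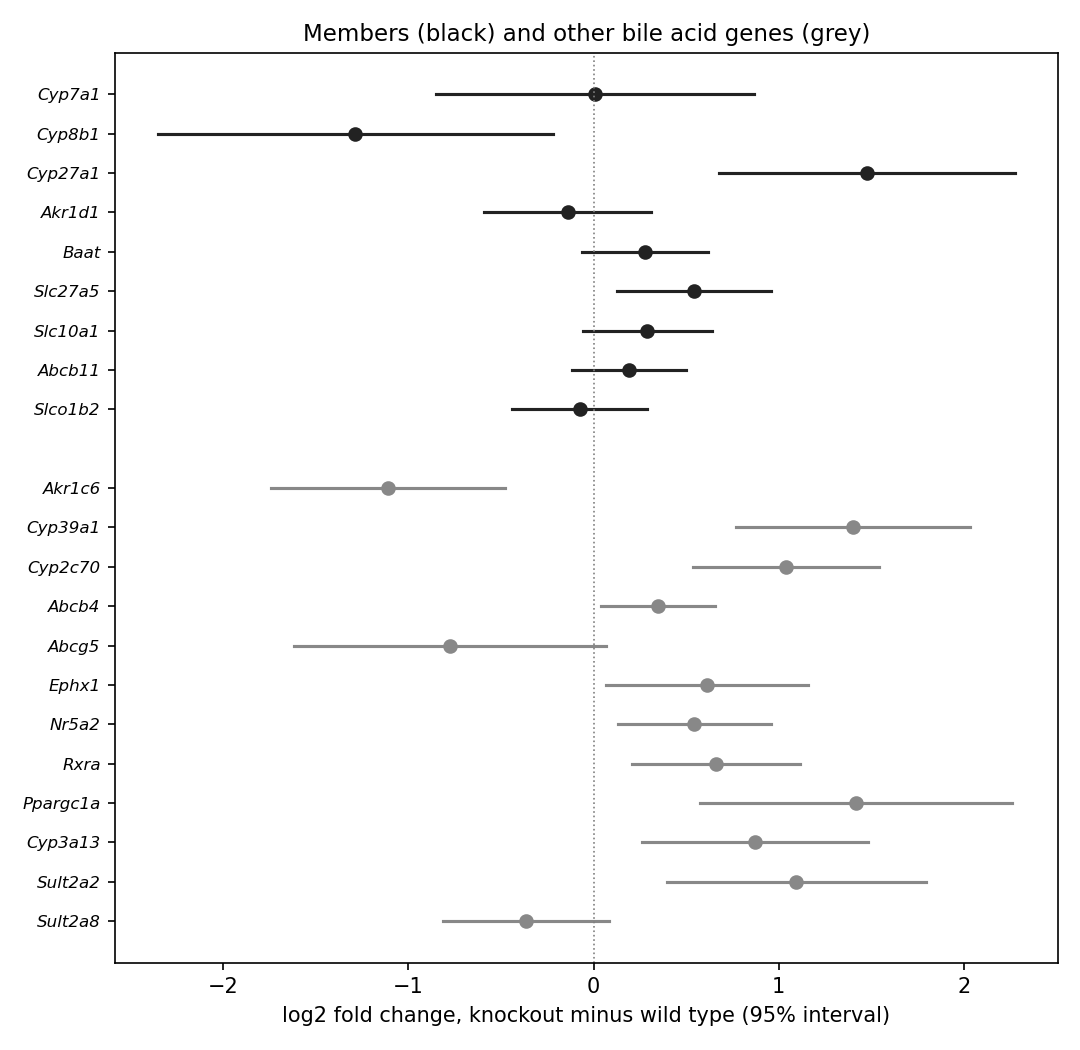
Log2 fold change of knockout over wild type (x axis, 0 marks equal signal) with its 95% interval for the 9 members tested (black) and for other bile acid genes (grey). The grey genes are the 3 with the smallest p of each other list. They were thus selected on these data, and all 55 tested genes of those lists had a median of 0.08. The intervals of Cyp27a1 (0.68 to 2.28) and Slc27a5 (0.13 to 0.96) lie above 0 and that of Cyp8b1 (-2.35 to -0.22) below it, without adjustment for the number of probe sets.

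Synthesis enzymes were also set beside transporters liver by liver, as a description with no test. The median log2 level of the 4 synthesis enzymes, set against the wild-type mean, was -0.53, -0.43, 0.49 and 0.21 in knockout 1 to 4, and that of the 3 transporters was 0.48, 0.12, 0.18 and -0.06. The synthesis median of the knockouts therefore had opposite signs in the 2 array sets, while the conjugation enzymes were at 0.58, 0.36, 0.44 and 0.26. In wild type 1 to 4 the synthesis median was -0.14, -0.03, -0.10 and 0.23. By brightest probe set, Cyp7a1 changed sign between the array sets (-0.97 and 0.99). Cyp8b1 (-1.95 and -0.62), Cyp27a1 (2.08 and 0.87) and Akr1d1 (-0.19 and -0.09) did not. Over all members, the difference between the array sets had an unadjusted limma p under 0.05 for 6 of 15 probe sets (40%), where 9.92% of all tested probe sets did. Both probe sets of Cyp7a1 are among the 6, so the 6 do not each stand for a separate gene. After adjustment the difference between the array sets passed for 0 of 15 (limma, adjusted p from 0.484 to 0.992), where 0.00981% of all did. Opposite directions with no overlap in either set occurred in 3 of the 15 and in 6.14% of all. The 3 were both probe sets of Cyp7a1 and a Slco1b2 probe set that is not its brightest, so they do not stand for separate genes. Hepatocyte markers had a median log2 difference of 0.26 in replicates 1 and 2 and -0.06 in replicates 3 and 4, and macrophage markers one of 0.44 and -0.07. The corresponding medians were -0.31 and 0.18 for erythroid, -0.06 and -0.32 for granulocyte, 0.15 and -0.22 for endothelial, -0.37 and -0.27 for stellate, -0.40 and -0.43 for B lymphoid, and -0.10 and -0.03 for bile duct markers. The 1 intestinal marker above the minimum, Fabp2, stood at -1.32 and -1.46. The part of these cell types in the members' differences was not tested. The 7 erythroid markers, all above the minimum, summed to 53309 to 65613 in wild type and 46797 to 69636.5 in knockout, and the 7 macrophage markers, likewise, to 17421 to 24248 and 18859 to 30038.

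**Figure D3:**
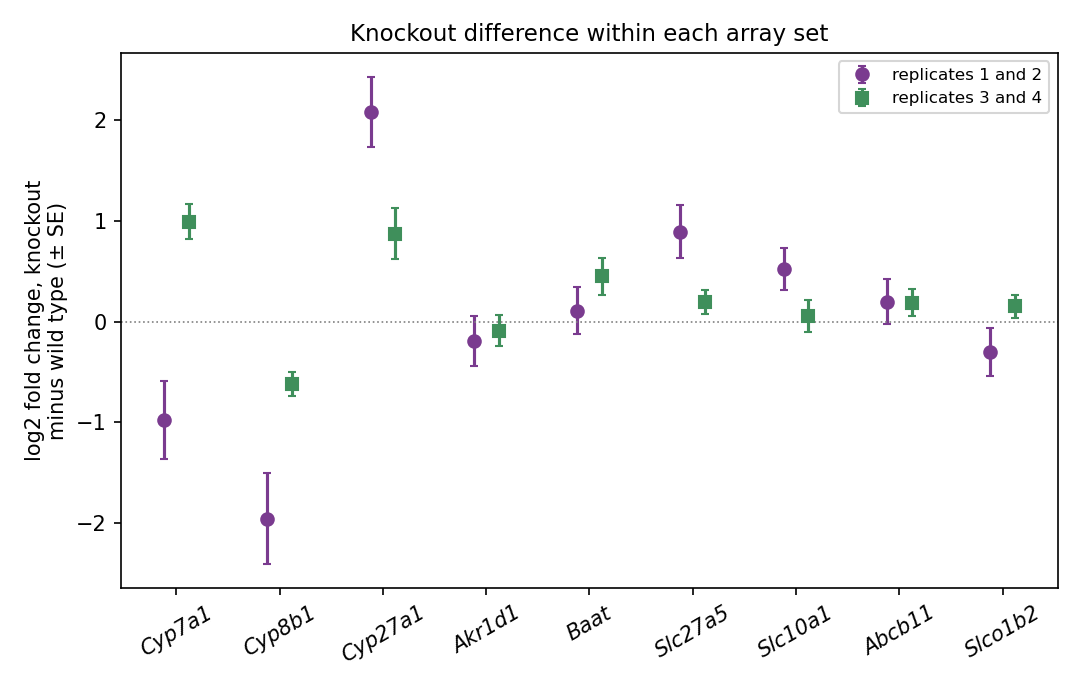
Log2 fold change of knockout over wild type (y axis, ± SE) for the 9 tested members (x axis), computed in replicates 1 and 2 (circles) and in replicates 3 and 4 (squares), 2 arrays per group in each. Cyp7a1 lies at -0.97 and 0.99, Cyp8b1 below 0 and Cyp27a1 and Slc27a5 above 0 in both.

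As a description of how the members varied from liver to liver, Pearson's r with Cyp27a1 was taken over the 8 arrays after subtracting group means. Slc27a5 (0.909) and Slc10a1 (0.892) followed Cyp27a1 most closely of the members, and Cyp8b1 ran against it (-0.857), with Cyp7a1 at -0.616. Over all named genes the 3 closest were Wwox at 0.999, Gata6 at 0.997 and Tm2d2 at 0.994. These 3 are the highest r of any tested probe set, whereas each member was taken by its brightest, so the values are not a like comparison. Cyp27a1 varied far more among the knockouts (1596 to 7118) than among the wild types (953 to 1273), so each r rests mostly on the knockouts. From knockout 1 to 4 its signal fell in the order of their pyruvate carboxylase ratios (7.03, 4.93, 2.07 and 2.06). Knockout 1 had the highest Cyp27a1 signal, and neither its part nor that of the ratio in each r was tested.

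Other genes of the pathway were taken from lists of 75 genes, of which 55 were tested and 0 were called by limma, 17 having an unadjusted p under 0.05 (13 higher and 4 lower). Over all 10878 named genes tested, 1683 had such a p, 823 higher and 860 lower. Among 15 other synthesis genes, 8 were above 0 with a median log2 difference of 0.10. Cyp39a1, which works on a brain-derived oxysterol, read 3489, 2452, 1229.6 and 2361 in wild type and 7619, 6148, 6190.3 and 4283 in knockout. Its difference was 1.40 ± 0.29 (limma, adjusted p = 0.0747). Cyp2c70, which makes the muricholic acids of mice, read 9897, 9136, 8237 and 4713 in wild type and 20565, 15585, 15664 and 12584 in knockout, a difference of 1.04 ± 0.23 (limma, adjusted p = 0.0875). In both genes every knockout array was above every wild type. In 2 others of the 15, Hsd3b7 (-0.25 ± 0.10) and Fdx1 (-0.39 ± 0.13), every knockout array was below every wild type. Over all tested probe sets the knockouts lay wholly above in 4.47% and wholly below in 4.85%. The differences of Cyp39a1 (1.22 and 1.59) and Cyp2c70 (0.91 and 1.17) had the same direction in the 2 array sets. With the array set as a block in the fit, which called 0.902% of probe sets, Cyp39a1 (adjusted p = 0.034) and Cyp2c70 (adjusted p = 0.0395) passed the threshold. Without wild type 4, Cyp39a1 stood at 1.43 (adjusted p = 0.136) and Cyp2c70 at 0.81 (adjusted p = 0.111). Akr1c6, an aldo-keto reductase of steroid metabolism, read 8907, 10237, 11663 and 4797 in wild type and 2496, 4767, 4044 and 4838 in knockout. Its difference was -1.11 ± 0.29 (limma, adjusted p = 0.122), with -1.46 and -0.76 in the 2 array sets, and -1.38 (adjusted p = 0.0778) without wild type 4, the one wild type in the knockout range.

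**Figure D4:**
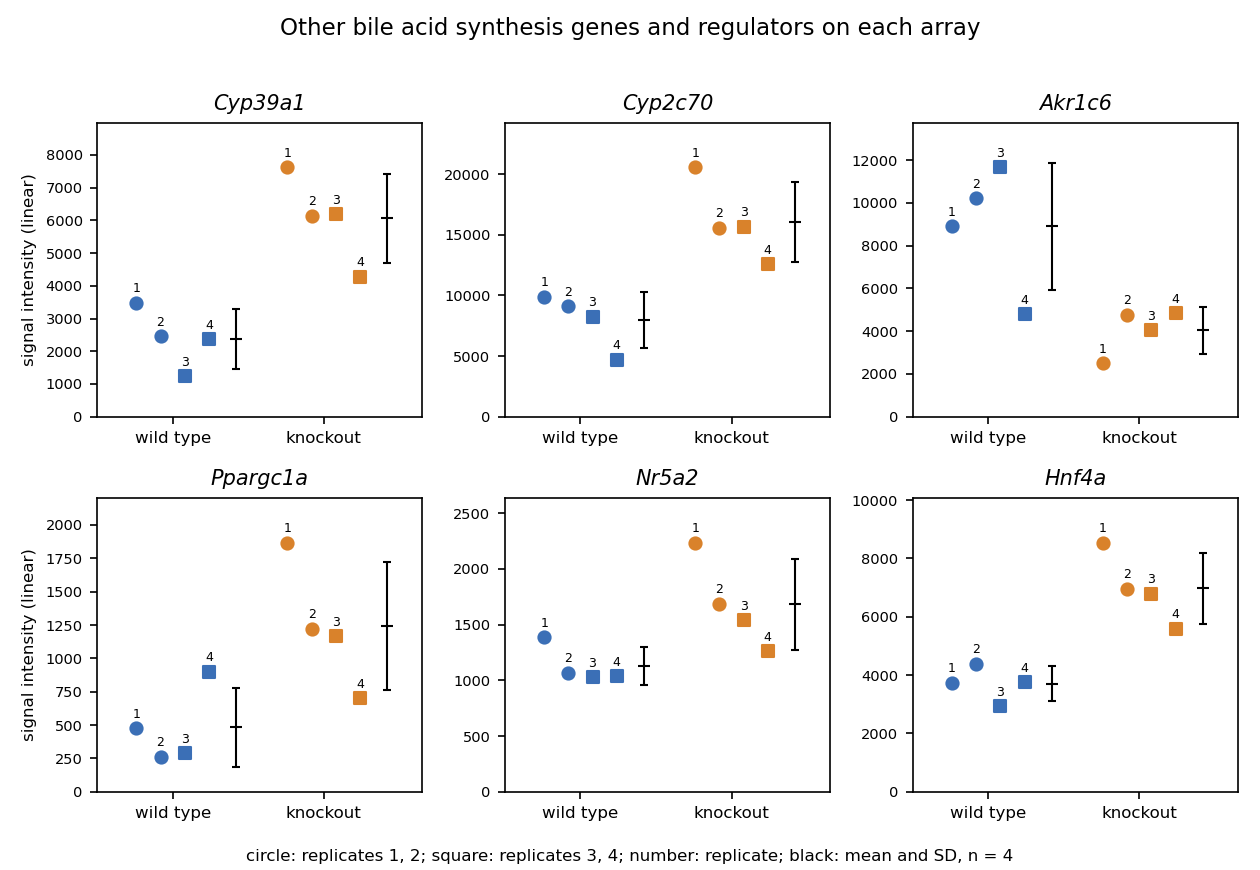
Signal intensity (linear scale, y axis) of Cyp39a1, Cyp2c70, Akr1c6, Ppargc1a, Nr5a2 and the Hnf4a probe set with the smallest p on the 4 wild-type and 4 knockout arrays, with replicate numbers, and the mean and SD in black. The knockout arrays of Cyp39a1 and Cyp2c70 all lie above the wild types, whereas in Akr1c6 wild type 4 lies among the knockouts.

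Of 13 other transport genes tested, 6 were above 0 and the median was -0.03. Abcb4, which moves phospholipid into bile, differed by 0.35 ± 0.14 (limma, adjusted p = 0.29), and Ephx1, an epoxide hydrolase also described as a bile acid carrier, by 0.61 ± 0.25 (limma, adjusted p = 0.295). In the first and second array set Abcb4 stood at 0.56 and 0.14 and Ephx1 at 1.06 and 0.16, and without wild type 4 they stood at 0.38 and 0.73. Abcg5, one of the paired sterol exporters, differed by -0.77 ± 0.38 (limma, adjusted p = 0.387), by 0.04 and -1.59 in the 2 array sets, and by -0.45 without wild type 4. In the 6 tested genes that modify or clear bile acids, 4 were above 0 and the median was 0.11. Sult2a2, a hydroxysteroid sulfotransferase whose family members are close copies, stood at 1.10 ± 0.32 (limma, adjusted p = 0.162) and the oxidase Cyp3a13 at 0.87 ± 0.28 (limma, adjusted p = 0.192). In the 2 array sets Sult2a2 stood at 1.21 and 0.98 and Cyp3a13 at 1.20 and 0.55, and without wild type 4 at 1.22 and 0.89. Sult2a8, another sulfotransferase, stood at -0.36 ± 0.20 (limma, adjusted p = 0.447), at -0.80 and 0.07 in the 2 array sets, and at -0.55 without wild type 4.

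Of 21 regulators tested, 12 were above 0 and the median was 0.03. Ppargc1a, a coactivator of fasting, read 478, 263, 291 and 901 in wild type and 1868, 1222, 1168 and 702 in knockout, a difference of 1.42 ± 0.38 (limma, adjusted p = 0.134). It was 2.04 and 0.80 in the 2 array sets and 1.77 without wild type 4, and its 4 other probe sets gave 1.19 to 1.47. Rxra, the partner of FXR, differed by 0.66 ± 0.21 (limma, adjusted p = 0.185) and Nr5a2 (LRH-1), an activator of Cyp7a1 and Cyp8b1, by 0.55 ± 0.19 (limma, adjusted p = 0.222). In the 2 array sets Rxra stood at 1.07 and 0.26 and Nr5a2 at 0.67 and 0.43, and without wild type 4 at 0.75 and 0.51. The other tested Rxra probe set gave 0.27 ± 0.21 (limma, adjusted p = 0.607). The other tested Nr5a2 probe sets gave 0.76 ± 0.18 and 0.34 ± 0.15 (limma, adjusted p = 0.107 and 0.344). With the array set as a block their adjusted p were 0.0459 and 0.252 (limma). The regulators Hnf4a, Nr1h4 and Nr0b2 were picked after their values were seen. Hnf4a, an activator of both hydroxylases, read 5242, 5559, 3931 and 4842 in wild type and 14958, 7468, 7183 and 5308 in knockout by its brightest probe set. The groups overlapped, and the difference was 0.73 ± 0.27 (limma, adjusted p = 0.251, and 0.125 with the array set as a block). It was 0.97 and 0.50 in the 2 array sets, 0.44 without knockout 1 and 0.73 without wild type 4. Its 3 other probe sets, whose groups did not overlap, gave 0.61, 0.91 and 0.85 (limma, adjusted p = 0.0992, 0.0515 and 0.0561, and 0.059, 0.0243 and 0.0414 with that block). Over all tested probe sets the knockouts lay wholly above the wild types in 4.47%, and the fit with that block called 0.902%. Nr1h4, the bile acid receptor, differed by -0.01 ± 0.16 (limma, adjusted p = 0.986), by 0.21 and -0.23 in the 2 array sets, and by 0.01 without wild type 4.

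Nr0b2, which represses Cyp7a1 in the feedback loop, read 493, 616, 1081 and 1287 in wild type 1 to 4 and 1299.5, 688, 719.6 and 514 in knockout 1 to 4. Knockout 1 and 2 lay above their wild-type counterparts and knockout 3 and 4 below theirs, which is the reverse of the order in Cyp7a1. The difference was 0.76 ± 0.32 in replicates 1 and 2 and -0.94 ± 0.20 in replicates 3 and 4. The difference between the array sets, -1.70 ± 0.43, did not pass limma's test (adjusted p = 0.484), and over all arrays the difference was -0.09 ± 0.34 (limma, adjusted p = 0.935). Without wild type 4 it was 0.13. Opposite directions in the 2 array sets with no overlap in either, as in Nr0b2, occurred in 6.14% of all tested probe sets. A link between Nr0b2 and Cyp7a1 was not tested.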

How the data were processed

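RNA from 8 mouse livers, 4 wild type and 4 knockout by the sample titles, was measured on Affymetrix mouse GeneChips. The authors deposited signal intensity, computed with GCOS 1.2 and scaled to a target of 500, per the labels. They were linear and their scaling was kept. The number of arrays and the signal limit precision. Genome build and detection calls are not given in the sources used here.

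Probe sets were named through the platform annotation and Entrez identifiers to RefSeq (34945 with 1 gene, 932 with several, 9160 with none, 64 controls). Log2(signal + 16) of the 20395 probe sets with signal of at least 200 on 4 or more arrays was compared with limma 3.58.1 in R 4.3.3 (lmFit, eBayes with trend, two-sided, Benjamini-Hochberg). Python 3.11.15, pandas 2.3.3, numpy 2.4.6 and matplotlib 3.10.9 made tables and figures. A gene stands by its brightest tested probe set. All members were named, and of each other list the called genes or else up to 3 with the smallest p. The 3 genes most like the member with the smallest p were named by the highest residual Pearson r of any of their tested probe sets. The fits were tested on simulated data. A planned motif is not reported here. Members and lists were chosen with earlier results of these data known. Replicates are separate livers, so p-values rest on the spread between these animals. In the main fit that spread also holds the difference between the array sets. No 2 arrays were alike enough to be 1 array (Pearson r within a group 0.937 to 0.972). Alternatives changed the pseudocount, signal minimum, scaling, trend, blocks, covariate and arrays.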

Additional observations from a re-analysis of the deposited data

Results flagged for a closer look

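In 58 groups of 4 arrays examined, 2 held an array far from the other 3, and chance alone marks about 1 group in 20. Wild type 1 read 4700.4 for Cyp7a1, where the other 3 wild types read 1729.7 to 2168. Without it the Cyp7a1 difference between knockout and wild type was 0.33. Wild type 1 also read 1388 for Nr5a2, where the other wild types read 1028 to 1069.

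Of the 29 probe sets of named genes that were examined, 4 had knockout arrays on opposite sides of their wild types in replicates 1 and 2 and in replicates 3 and 4, as had 6.14% of all tested probe sets. The difference between these array sets on the log2 scale was 2.26 and 1.97 for the 2 Cyp7a1 probe sets, 1.29 for a Slco1b2 probe set and -1.70 for Nr0b2. Their unadjusted limma p were 0.000762, 0.00362, 0.00338 and 0.00303, and each had an adjusted p of 0.484, so none was past the threshold after adjustment. Nr0b2 was picked after its values were seen, and both Cyp7a1 probe sets count among the 4. The 4 of 29 and the 6.14% are therefore not a like comparison.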

How the results depend on the processing

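Over all tested probe sets 61 were called. There were 22 with a minimum of 100, 21 with no minimum, 18 with no trend, 184 with the array set (replicates 1 and 2 against 3 and 4) as a block, 30 in replicates 1 and 2 alone, 2 in replicates 3 and 4 alone, 154 with that block and wild type 4 left out, and 2 to 334 with 1 array left out, the highest without knockout 4. The members had 0 called, and 0 to 1 with 1 array left out: Cyp27a1 at 1.80 without knockout 4. Of the other pathway genes 0 were called, 2 with the array set as a block (Cyp39a1, Cyp2c70), 4 with that block and wild type 4 left out (also Akr1c6 at -1.44 and Ppargc1a at 1.86), and 0 to 5 with 1 array left out (without knockout 4, Cyp39a1, Cyp2c70, Rxra, Cyp3a13 and Cebpb). The difference between the array sets was called for 2 probe sets, 1 at a pseudocount of 64, 1 at a minimum of 100, 1 with no trend, 0 with no minimum, 0 after quantile normalization, and 0 to 22 with 1 array left out. Same-numbered arrays had deviations correlated at 0.22, 0.40, 0.34 and 0.05, wild type 3 was closest to knockout 4, and the numbers were not taken as pairs; the replicate block called 56 probe sets and 1 other pathway gene, Cyp2c70 (adjusted p = 0.0418). Reversed in sign were Cyp7a1 (-0.97 in replicates 1 and 2, -0.17 with the block and wild type 4 left out, -0.26 to 0.33 with 1 array left out), Akr1d1 (0.0018 with the ratio as covariate, 0.016 by its other probe set, -0.24 to 0.028 with 1 array left out), Slco1b2 (0.15 in replicates 3 and 4, 0.039 by another probe set, -0.18 to 0.072 with 1 array left out), Abcg5 (0.035 in replicates 1 and 2), Sult2a8 (0.073 in replicates 3 and 4) and Nr0b2 (0.76 in replicates 1 and 2, 0.13 with the block and wild type 4 left out, -0.34 to 0.13 with 1 array left out); none of these was called under any setting. The cause was not tested. Cyp8b1, Cyp27a1, Slc27a5, Slc10a1, Abcb11 and Baat kept their direction under every alternative run. The difference between the array sets was not refitted with a replicate block. With 4 arrays a group the median standard error was 0.191 over all tested probe sets, and Cyp7b1 was too dim to test.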
